A study of Drosophila melanogaster with 9 samples.

Results

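The genes described here encode the calcium switch and the core filaments of Drosophila muscle: 5 troponin C genes (TpnC4, TpnC73F, TpnC47D, TpnC41C and TpnC25D), troponin I (wupA), troponin T (up), the muscle myosin heavy chain (Mhc) and the tropomyosins Tm1 and Tm2. TpnC4 was picked because its read count was much lower in both knockdowns of Hrb98DE than in the control, so its difference from the control is given as a description and not as a test. The other 9 genes were added by their role, to ask whether contractile genes expressed in the same cells move as TpnC4 does. Of the 10 genes, 9 were matched by FlyBase identifier to rows of the count files, out of 17559 identifiers in all. The current identifier of wupA is not among these rows, and wupA was not analysed here.

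S2R+ is an adherent Drosophila line, labelled as Oregon R and of late embryonic origin. KD1 cells received the first double-stranded RNA (dsRNA) against Hrb98DE, KD2 cells received the second, and lacZ cells received dsRNA against a bacterial gene that flies do not have. Every group was grown at 25 °C, took up dsRNA during 6 h without serum and was harvested at day 5, so the lacZ cells share the starvation and the exposure to dsRNA. Libraries of polyadenylated RNA from 3 replicates per group were analysed, and the methods of the study call the replicates biological. Those methods state a larger number of replicates for each dsRNA, while the statistics of the study use n = 3. A change is measured here in a cultured line and not in muscle.

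In striated muscle, troponin sits on the actin filament together with tropomyosin, a coiled-coil protein that lies along the filament and blocks the myosin binding sites. Troponin C binds calcium through its EF hands, troponin I holds the filament in the off state, and troponin T ties the complex to tropomyosin. Flies carry several troponin C genes that are used in different muscles and stages, and TpnC4 is best known as the troponin C of the adult indirect flight muscle, which is activated by stretch.

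Libraries held between 13040608 and 15931035 reads assigned to genes. Hrb98DE, the target, had 14.1% ± 1.4 of its lacZ level in KD1, and KD2 retained 15.5% ± 1.05 (SD, n = 3 each). Its paralog Hrb87F was also lower, by log2 fold changes of -1.26 in KD1 and -2.10 in KD2, so neither group lacks Hrb98DE alone. Markers of hemocytes, the blood cells that S2-type lines resemble, were mostly detected. Of 10 listed genes, 9 had a mean above 1 CPM (reads scaled to a common library total), from 2.18 CPM (He) to 366 CPM (crq). The remaining marker, NimC1, was at 0.18 CPM. The summed level of the list was 858 to 877 CPM in KD1, 883 to 902 CPM in KD2 and 818 to 868 CPM in lacZ. Genes count as having risen or fallen where the DESeq2 adjusted p was under 0.05 and the fold change above 1.3. Within the hemocyte list, 4 genes rose in KD1 and the same number in KD2 (Hml, Sr-CI, vkg and Col4a1, log2 fold changes from 0.44 to 0.73, DESeq2 adjusted p at most 0.00131), where 2.24% of all genes rose in KD1 and 2.93% in KD2. Of the markers that DESeq2 did not call, eater (-0.31 in KD1, -0.34 in KD2), He (-0.67 and -0.48) and crq (-0.10 and -0.15) had log2 fold changes below 0. With edgeR, 5 genes of the list were called in KD1 and 4 in KD2. Of the tested markers without a DESeq2 call, only He was beyond 1.3-fold, in both knockdowns. The part of the hemocyte markers in the results on TpnC4 was not tested. No fat body marker passed 1 CPM, and of the neuron and germline markers 2 each did, none of which was called by DESeq2 or edgeR (unadjusted p under 0.05 for 1 neuron marker in KD1). The 2 neuron markers had means of 24.3 and 1.25 CPM, and the 2 germline markers had 19.0 and 5.12 CPM.

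Only 2 of the 9 matched genes were expressed above a mean of 1 CPM, TpnC4 and Tm1. The remaining 7 were at or near 0 in every library. Over these 7 genes and 9 libraries, 29 of 63 values were 0, 59 were at or under 3 reads, and no value exceeded 6 reads. The highest level any of them reached was 0.202 RPKM (reads per kilobase of exon, scaled to the library total), whereas TpnC4 averaged 21.9 and Tm1 averaged 42.1 RPKM in lacZ. The libraries thus held mRNA of a troponin C and of a tropomyosin, but almost none of troponin T, of the muscle myosin heavy chain or of the other troponin C genes.

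**Figure D1:**
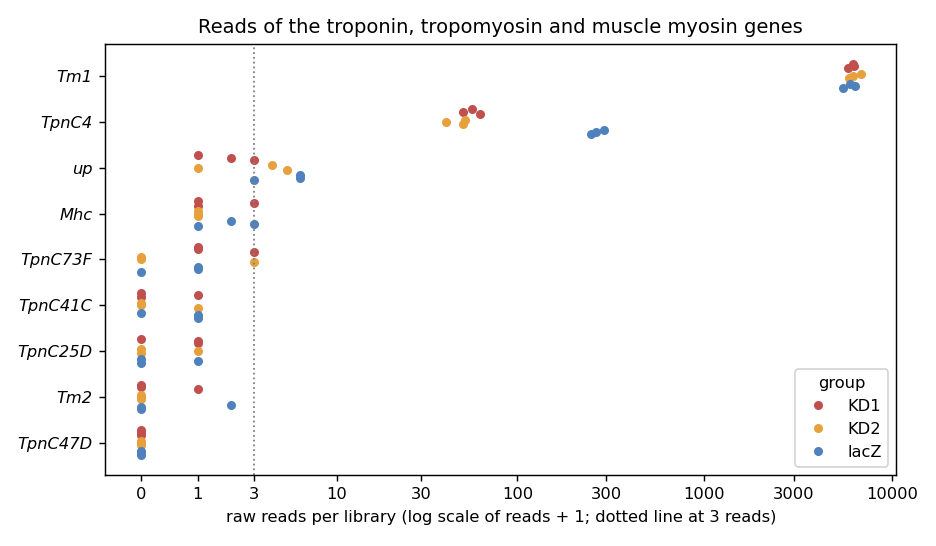
Raw reads of the 9 matched genes in each of the 9 libraries, on a log scale of reads + 1, with KD1, KD2 and lacZ as separate rows of points within each gene. Tm1 lies between 5500 and 6789 reads in all groups, TpnC4 is split into 41 to 63 reads in the knockdowns and 248 to 290 in lacZ, and the 7 other genes stay at 6 reads or fewer.

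TpnC4 (FBgn0033027) maps to the minus strand of 2R (BDGP6, 5503437 to 5507866), with 849 bases of annotated exon and a protein of 153 residues. Its normalised read counts (reads divided by the size factor of the library) were 53.7, 48.7 and 66.9 in KD1 replicates 1, 3 and 4. In KD2 replicates 1, 2 and 4 they were 48.6, 42.3 and 52.4, and in lacZ replicates 1, 2 and 3 they were 290.9, 249.5 and 274.2. Every knockdown library lay below every lacZ library, with the highest knockdown value at 66.9 and the lowest lacZ value at 249.5.

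The group means were 56.4 ± 9.40 in KD1, 47.8 ± 5.11 in KD2 and 272 ± 20.8 in lacZ (SD, n = 3 each). Relative to the lacZ mean, 20.8% ± 3.46 of the TpnC4 mRNA was left in KD1 and 17.6% ± 1.88 in KD2. On the log2 scale this was a difference of -2.27 ± 0.17 (SE, 95% interval -2.60 to -1.94) between KD1 and lacZ, and of -2.51 ± 0.17 (95% interval -2.85 to -2.16) between KD2 and lacZ. These values chose the gene and carry no p-value. Both comparisons use the same 3 lacZ libraries, so they are not independent of each other. In bulk RNA, fewer cells that express TpnC4 and less TpnC4 mRNA per cell cannot be told apart.

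How far TpnC4 stands from other genes was read from the ranked fold changes. Among the 6587 genes with a mean above 5 CPM, TpnC4 had the 4th lowest fold change in KD1 and the 3rd lowest in KD2, and among all 7406 genes tested it had the 11th lowest in KD1 and the 7th lowest in KD2. In KD1 its neighbours in the ranking above 5 CPM were CG15211 at -2.35 and CG34330 at -2.01, and in KD2 they were CG15211 at -2.54 and CG14275 at -2.13 (log2 fold changes). The TpnC4 counts rest on 171 reads over the KD1 libraries, 144 over the KD2 libraries and 802 over the lacZ libraries, which limits the precision of each knockdown value.

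The contrast between the dsRNAs was not the measure by which TpnC4 was picked. Picking a gene that is low in both knockdowns favours similar KD1 and KD2 levels, however. The p-values of TpnC4 in this contrast are therefore not independent of the choice and do not show that the dsRNAs act alike on it. TpnC4 differed between KD1 and KD2 by a log2 value of 0.23 ± 0.20 (SE), with a 95% interval from -0.16 to 0.63 and an unadjusted DESeq2 p of 0.243. DESeq2 gave no adjusted p because independent filtering set the gene aside in this contrast. Without that step the adjusted p was 1, and edgeR gave 0.747. The counts of KD1 and KD2 overlapped, and the interval allows TpnC4 to be up to 1.54-fold higher or 0.896 times as high in KD1. Of all 7406 genes tested, 0.0135% were called between the knockdowns in either direction, and 0 of the 2 expressed muscle genes were, by DESeq2 or by edgeR, with 0 at an unadjusted p under 0.05.

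**Figure D2:**
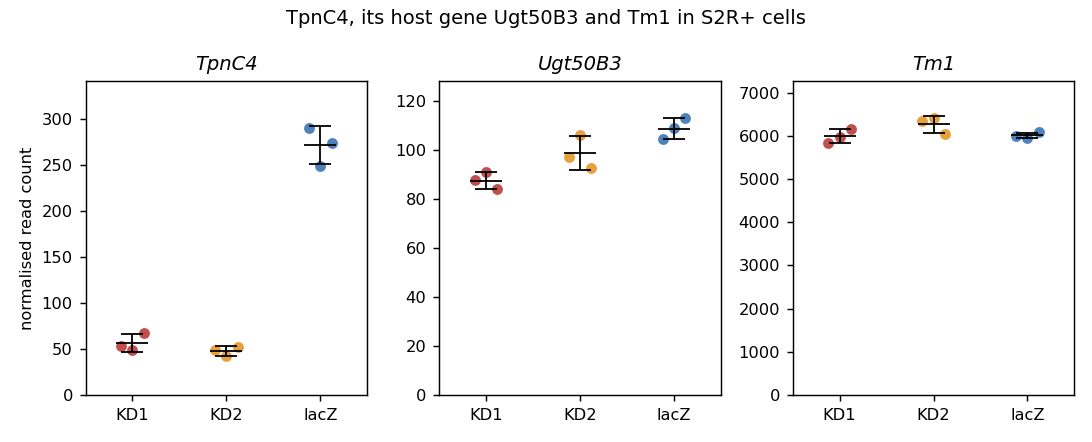
Normalised read counts of TpnC4, of Ugt50B3, the gene in whose intron TpnC4 lies, and of Tm1, with 1 point per library and the mean ± SD of 3 replicates in black. TpnC4 averages 56.4 in KD1 and 47.8 in KD2 against 272 in lacZ, Ugt50B3 lies between 83.9 and 113 throughout, and Tm1 averages 5994 in KD1, 6269 in KD2 and 6016 in lacZ.

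TpnC4 was nearly the only troponin C gene with reads. It took 171 of the 179 reads over the 5 troponin C genes in KD1 (95.5%, 95% Wilson interval 91.4 to 97.7), 144 of 149 in KD2 (96.6%, 92.4 to 98.6) and 802 of 807 in lacZ (99.4%, 98.6 to 99.7). The intervals cover counting error only, since reads amplified by PCR are not independent molecules. The other 4 troponin C genes together had 8 reads in KD1, 5 in KD2 and 5 in lacZ, so no other troponin C gene came near the TpnC4 count of any group. In lacZ the level of TpnC4 was close to that of an ordinary expressed gene, since 51.3% of 7244 genes with a known exon length were lower and their median was 21.1 RPKM. In KD1 it averaged 4.46 ± 0.735 RPKM and in KD2 3.77 ± 0.398 RPKM, against 21.9 ± 1.88 RPKM in lacZ.

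TpnC73F and TpnC47D are troponin C genes of larval muscle. TpnC73F, on 3L at 17046063 to 17048390 (plus strand), had 1, 1 and 3 reads in KD1, 0, 0 and 3 in KD2 and 1, 1 and 0 in lacZ. TpnC47D, on 2R at 11273845 to 11275286 (minus strand), had 0 reads in all 9 libraries, and a count of 0 (at most 3 reads over all libraries) allows up to 0.0284 RPKM. TpnC41C is a troponin C of adult muscle and lies on 2R at 5065237 to 5070210 (minus strand), 433.2 kb from TpnC4. It had 0 or 1 read in every library, with 1 in all over KD1, 1 over KD2 and 2 over lacZ. TpnC25D, on 2L at 5216701 to 5219053 (plus strand), likewise had 0 or 1 read in each library, with 2 over KD1, 1 over KD2 and 1 over lacZ. At this depth no difference between groups could be detected for these 4 genes, and no fold is given.

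Troponin T, encoded by up on X at 13593474 to 13602578 (minus strand), was the only low gene to reach more than 3 reads. It had 1, 2 and 3 reads in KD1, 4, 1 and 5 in KD2 and 6, 6 and 3 in lacZ. The sums of 6, 10 and 15 reads have exact Poisson 95% intervals of 2.20 to 13.1 for KD1, 4.80 to 18.4 for KD2 and 8.4 to 24.7 for lacZ, which overlap. The knockdown sums were under the lacZ sum. The difference itself was not tested, and overlap of separate intervals cannot decide whether it exceeds counting error.

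Mhc is the gene for all muscle myosin heavy chains of the fly and lies on 2L at 16766566 to 16788766 (plus strand). It had 1 to 3 reads per library, with 5 over KD1, 3 over KD2 and 6 over lacZ, spread over 9058 bases of annotated exon. Tm2, which encodes a tropomyosin of 284 residues, had 1 read over KD1, 0 over KD2 and 2 over lacZ. Summed over all 7 low genes, the reads came to 20 in KD1, 18 in KD2 and 28 in lacZ.

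Tm1 and Tm2 are neighbours on 3R, with Tm1 at 15278220 to 15308779 and Tm2 at 15310193 to 15315197, both on the plus strand and 1.4 kb apart. Tm1 (FBgn0003721) makes cytoskeletal as well as muscle tropomyosins from 1 locus, with 18 annotated transcripts and proteins of 161 to 711 residues. Counts per gene sum over these transcripts and do not tell the muscle forms from the cytoskeletal ones.

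Tm1 did not follow TpnC4. Its normalised read counts were 5837, 5984 and 6161 in KD1 replicates 1, 3 and 4, 6346, 6410 and 6049 in KD2 replicates 1, 2 and 4, and 6002, 5963 and 6082 in lacZ replicates 1, 2 and 3. The KD1 values lie on both sides of the lacZ values, and 1 KD2 value lies among them. For KD1 the log2 fold change from lacZ was -0.01 ± 0.04 (SE, 95% interval -0.09 to 0.08, DESeq2 adjusted p = 0.951). For KD2 it was 0.06 ± 0.04 (95% interval -0.03 to 0.15, DESeq2 adjusted p = 0.368). The intervals correspond to 0.938 to 1.06 times the lacZ level in KD1 and 0.981 to 1.11 times in KD2, so a change of the size of that of TpnC4, or of 1.3-fold, lies outside them.

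Tm1 was therefore not past the threshold. The 2 expressed genes give 1 test that did not choose its gene, Tm1 against lacZ, with 0 calls in KD1 and 0 in KD2 by DESeq2 and by edgeR (adjusted p = 0.996 and 0.292). Over all 7406 genes tested, 5.13% fell and 2.24% rose in KD1, and 5.2% fell and 2.93% rose in KD2. Set against KD2, KD1 had a Tm1 log2 difference of -0.06 ± 0.04 (SE, DESeq2 adjusted p = 0.717). Exons of Tm1 share 280 bases with the opposite-strand gene l(3)neo43, whose count was 89 to 127 reads per library, small beside the 5500 to 6789 reads of Tm1. The genes next to Tm1 (l(3)neo43, CG45218, MRG15 and CG4338) had log2 fold changes from -0.07 to 0.56, and none was past the threshold in KD1 or KD2.

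The surroundings of TpnC4 were examined next. TpnC4 lies within Ugt50B3, a UDP-glycosyltransferase gene on the opposite strand, in the first intron (30319 bases) of 2 of its 5 transcripts. The exons of both genes share 0 bases. Ugt50B3 had 87.6, 90.8 and 83.9 normalised reads in KD1, 97.2, 106.2 and 92.4 in KD2 and 104.3, 108.7 and 112.8 in lacZ.

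All KD1 values of Ugt50B3 were thus under the lacZ values, while those of KD2 overlapped them. The log2 fold changes were -0.31 ± 0.17 (SE) in KD1 and -0.14 ± 0.16 in KD2, with DESeq2 adjusted p of 0.18 and 0.602. CG30440, the nearest gene on the strand of TpnC4 at a distance of 7575 bases, had log2 fold changes of -0.22 ± 0.20 in KD1 and -0.08 ± 0.20 in KD2 (DESeq2 adjusted p = 0.487 and 0.839). On the other side, Fis1, a mitochondrial fission factor, had -0.15 and -0.16 (adjusted p = 0.0922 and 0.0728, DESeq2), and CG17508 had 0.06 and 0.05. None of these 4 neighbours was past the threshold in KD1 or KD2, and the lowest of their values was -0.31. The test of each difference from TpnC4 was not run, because TpnC4 was chosen by its value.

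**Figure D3:**
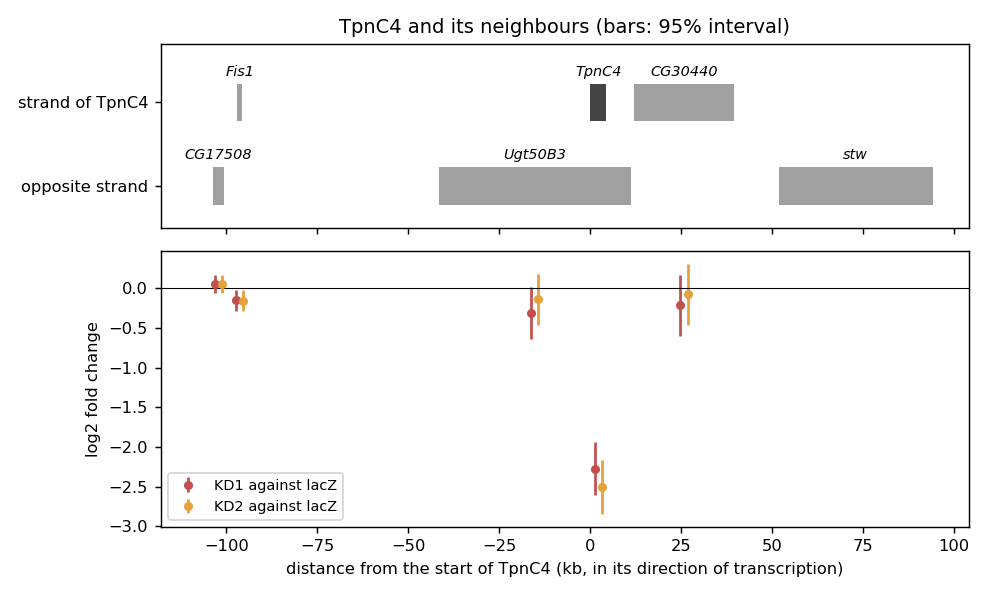
Top, the genes around TpnC4 on both strands, by distance in kb from its start; bottom, the log2 fold change of each against lacZ with its 95% interval, at the middle of the gene. TpnC4 stands at -2.27 (KD1) and -2.51 (KD2), while Ugt50B3, CG30440, Fis1 and CG17508 lie between -0.31 and 0.06; stw has no point because its identifier is not among those counted.

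To see whether muscle genes outside the troponin and tropomyosin families moved, 21 other sarcomere genes were listed by their known role. All were in the files, and 9 passed 1 CPM. The 12 below it, among them the muscle actins Act57B, Act79B, Act87E and Act88F and the light chains Mlc1 and Mlc2, had 0 to 17 reads per library, and their summed reads were 23 to 32 per library in KD1, 26 to 30 in KD2 and 23 to 32 in lacZ.

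Of the 9 tested genes, 1 fell and 0 rose in KD1, while 0 fell and 1 rose in KD2, counts too small to be told from the shares over all genes given above. The list median, on the log2 scale, was -0.17 for KD1 and -0.04 for KD2, beside 0.00 over all genes in each comparison. The KD1 count hangs on genes close to the 1.3-fold limit. The gene that fell in KD1 was Zasp52, a PDZ and LIM protein of the Z-disc, which averaged 2787 ± 101 normalised reads in KD1, 2852 ± 237 in KD2 and 3629 ± 106 in lacZ (SD, n = 3 each). KD1 gave a log2 fold change of -0.38 ± 0.06 (SE, 1.303-fold, DESeq2 adjusted p = 6.95e-08) and KD2 one of -0.35 ± 0.06 (1.272-fold, adjusted p = 1.06e-06). With edgeR it was 1.298-fold in KD1 and no longer past the limit, and the same held without KD1 replicate 1 (1.283-fold), KD1 replicate 3 (1.297-fold) or lacZ replicate 2 (1.2845-fold). Without KD2 replicate 1 it also passed in KD2 (1.320-fold).

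The gene that rose in KD2 was tmod, tropomodulin, which caps the pointed ends of actin filaments and binds tropomyosin. It had 5703, 5753 and 6080 normalised reads in KD1, 6352, 6230 and 6041 in KD2 and 4477, 4442 and 4579 in lacZ, so every knockdown library lay above every lacZ library. KD2 gave a log2 fold change of 0.46 ± 0.05 (SE, DESeq2 adjusted p = 2.74e-21) and KD1 one of 0.38 ± 0.05 (adjusted p = 5.43e-14). In KD1 this was 1.299-fold, just under the limit, and edgeR gave 1.304-fold. Between KD1 and KD2 the difference was -0.09 ± 0.05 (DESeq2 adjusted p = 0.562), so the separate calls do not show that the dsRNAs differ on tmod.

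Msp300, a nesprin that links nuclei to the cytoskeleton, was highly expressed and variable, with 3550 to 5077 normalised reads in KD1, 4188 to 4772 in KD2 and 3887 to 5276 in lacZ. Its log2 fold changes were -0.17 ± 0.16 (SE) in KD1 and -0.06 ± 0.16 in KD2 (DESeq2 adjusted p = 0.521 and 0.838). Without a fold limit, 5 of the 9 genes had an adjusted p under 0.05 in each comparison, 2 of them higher and 3 lower, where 21.2% of all genes did in KD1 and 23.6% in KD2. Besides tmod and Zasp52 these were Mf (myofilin, a thick filament protein), Actn (alpha-actinin, which crosslinks actin at the Z-disc) and Strn-Mlck (a myosin light chain kinase).

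Mf had log2 fold changes of 0.23 ± 0.06 (SE) in KD1 and 0.33 ± 0.06 in KD2 (DESeq2 adjusted p = 0.000585 and 3.65e-07). Actn had -0.18 ± 0.05 and -0.14 ± 0.05 (adjusted p = 0.00435 and 0.0256), and Strn-Mlck had -0.27 ± 0.07 and -0.34 ± 0.07 (adjusted p = 0.00179 and 5.38e-05). In each of the 5 the knockdown libraries lay on one side of all lacZ libraries, in mixed directions. The 5 were named for their adjusted p in the same comparisons, which favours such a split, and its share over all genes was not counted. The titin-like genes sls and bt and the obscurin gene Obsc were weak, with group means of 34.6 to 46.6 normalised reads, and their intervals each span 0.

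**Figure D4:**
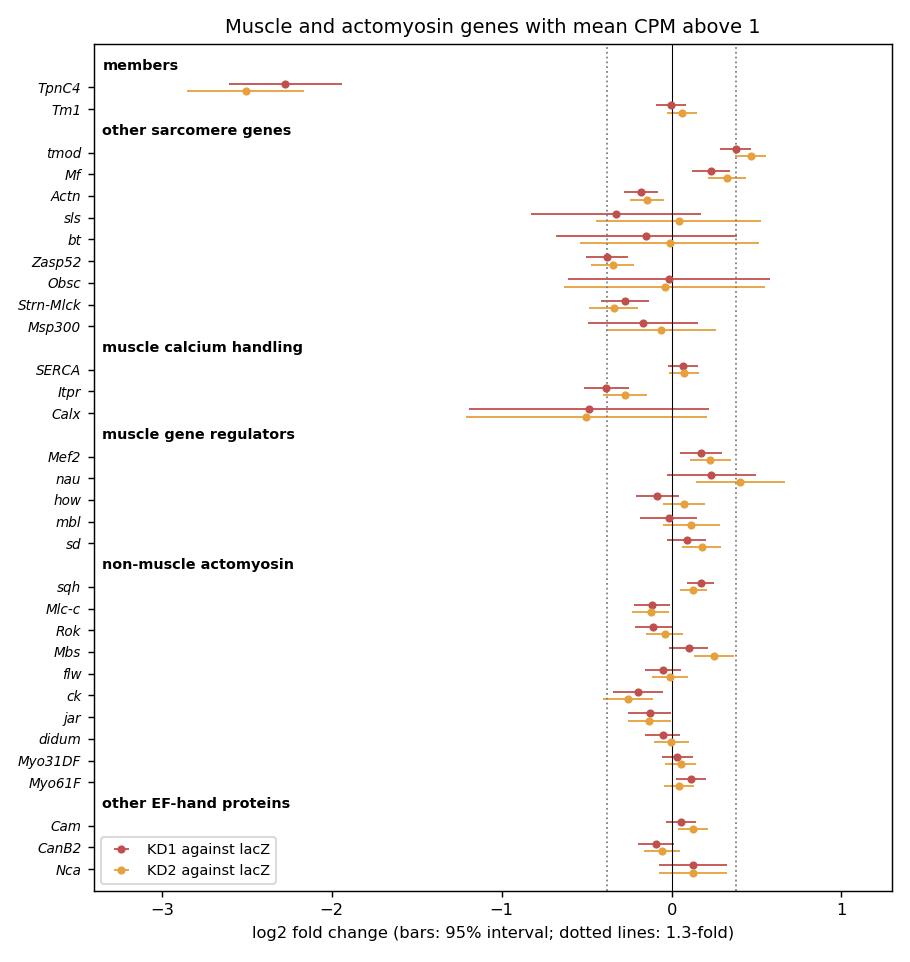
Log2 fold changes against lacZ, with 95% intervals, of the tested genes of each list, with KD1 above KD2 within a gene and dotted lines at 1.3-fold. TpnC4 lies beyond -1.94 in KD1 and -2.16 in KD2 over its whole interval, Tm1 is at -0.01 and 0.06, and Zasp52, tmod, Itpr and nau sit near the dotted lines.

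The muscle differentiation markers fixed as a check were mostly at the floor. All of these markers are also in the list of other sarcomere genes above, so they repeat part of it and are not a separate observation. Of 10 such genes, 3 passed 1 CPM (Mf, bt and sls) and 0 were past the threshold by DESeq2 or edgeR. Of the 3, 1 had an unadjusted p under 0.05 in each comparison, where 31.7% of all genes did in KD1 and 33.2% in KD2. The summed level of these markers was 290 to 314 CPM in KD1, 306 to 333 CPM in KD2 and 260 to 273 CPM in lacZ, nearly all of it from Mf. The other 7 had 0 to 12 reads per library. TpnC4 is thus lower in the groups in which the summed markers, through Mf, are higher, and the part of these markers in that result was not tested.

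Muscle calcium handling was covered by 8 listed genes, of which 7 were in the files and 3 passed 1 CPM. Of these 3, 1 fell in KD1, where 5.13% of all genes fell, and 0 were past the threshold in KD2. Itpr, the IP3 receptor of the endoplasmic reticulum, fell in KD1, with 1371, 1456 and 1419 normalised reads against 1726, 1966 and 1842 in lacZ. In KD2 it had 1612, 1435 and 1529, also below all lacZ values. The change on the log2 scale was -0.38 ± 0.07 (SE, DESeq2 adjusted p = 3.72e-07) for KD1 and -0.27 ± 0.07 (adjusted p = 0.000439) for KD2, the second under the fold limit. Like Zasp52, it was not past the fold limit in KD1 with edgeR (log2 fold change -0.378), nor without KD1 replicate 1 (-0.361) or without lacZ replicate 2 (-0.335).

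SERCA, the calcium pump that refills the store, had log2 fold changes of 0.07 ± 0.05 (SE) in KD1 and in KD2 (DESeq2 adjusted p = 0.294 and 0.244). The sodium-calcium exchanger Calx averaged 20.8 normalised reads in KD1, 20.5 in KD2 and 29.3 in lacZ, with log2 fold changes of -0.49 ± 0.36 and -0.50 ± 0.36 (DESeq2 adjusted p = 0.371 and 0.348). The 4 genes below 1 CPM, which include the ryanodine receptor RyR, had 0 to 19 reads per library.

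Among 11 regulators of muscle genes, 5 passed 1 CPM. Mef2, the transcription factor that switches on most muscle genes, had 1505, 1703 and 1676 normalised reads in KD1, 1692, 1690 and 1693 in KD2 and 1415, 1427 and 1489 in lacZ. All knockdown values were above the lacZ values, by log2 fold changes of 0.17 ± 0.06 (SE) in KD1 and 0.23 ± 0.06 in KD2 (DESeq2 adjusted p = 0.029 and 0.00193), which is under 1.3-fold. The TEAD factor sd had 0.09 ± 0.06 and 0.18 ± 0.06 (adjusted p = 0.299 and 0.0142).

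The only regulator past the threshold, of 5 tested, was nau, the fly MyoD homologue, and only in KD2, where 2.93% of all genes rose. It had 170 ± 10.4 normalised reads in KD1, 192 ± 13.5 in KD2 and 145 ± 9.37 in lacZ (SD, n = 3 each). Its change on the log2 scale was 0.41 ± 0.13 (SE, DESeq2 adjusted p = 0.0134) for KD2 and 0.23 ± 0.13 (adjusted p = 0.22) for KD1. In KD2 nau was no longer called without KD2 replicate 1 (DESeq2 adjusted p = 0.125), lacZ replicate 1 (0.0701) or lacZ replicate 2 (0.0787). The difference between KD1 and KD2 was -0.17 ± 0.13, for which DESeq2 gave no adjusted p, and no regulator was called in that contrast. The 6 regulators below 1 CPM had 0 to 24 reads per library.

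Contractile genes that every cell uses were listed as well, to set TpnC4 beside the actomyosin of cells that are not muscle. Of the 11 listed, zip, the non-muscle myosin heavy chain, has no values because its current identifier is not among those counted. All 10 in the files passed 1 CPM, and 0 were past the threshold in KD1 or KD2 by DESeq2 or edgeR, although 5 in each comparison had an unadjusted p under 0.05 and 2 in KD1 and 3 in KD2 an adjusted p under 0.05. An unadjusted p under 0.05 was found for 31.7% of all genes in KD1 and 33.2% in KD2, and the 2 and 3 genes of 10 are near the shares of 21.2% and 23.6% of all genes with an adjusted p under 0.05. The regulatory light chain sqh averaged 8054 ± 106 normalised reads in KD1, 7813 ± 91.8 in KD2 and 7150 ± 169 in lacZ (SD, n = 3 each). Its log2 fold changes were 0.17 ± 0.04 (SE) in KD1 and 0.13 ± 0.04 in KD2 (DESeq2 adjusted p = 0.000342 and 0.0104), with every knockdown library above every lacZ library. The essential light chain Mlc-c had -0.11 ± 0.05 and -0.12 ± 0.05 (adjusted p = 0.128 and 0.085). The median over the list was -0.05 in KD1 and -0.01 in KD2.

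Troponin C belongs to the EF-hand proteins, of which 10 others were listed and 3 passed 1 CPM. None was past the threshold by DESeq2 or edgeR. An unadjusted p under 0.05 was found for 0 of the 3 in KD1 and 1 in KD2, where 31.7% and 33.2% of all genes had one. Calmodulin (Cam), the general calcium sensor of cells, averaged 13950 ± 415 normalised reads in KD1, 14640 ± 484 in KD2 and 13430 ± 270 in lacZ (SD, n = 3 each). Its log2 fold changes were 0.05 ± 0.04 (SE) in KD1 and 0.12 ± 0.04 in KD2 (DESeq2 adjusted p = 0.425 and 0.0254). The calcineurin subunit CanB2 had -0.09 ± 0.05 and -0.06 ± 0.05 (adjusted p = 0.22 and 0.488).

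Finally, genes were ranked by how closely their profile over the 9 libraries resembled that of TpnC4, using Pearson's r of log2(normalised count + 1) among 6586 other genes above 5 CPM. The closest were CG14764 (r = 0.996), bin3 (0.995), Stim (0.993), MFS17 (0.993) and Bet3 (0.992). All r values share the same libraries and the same step between knockdown and lacZ, which any gene with a strong and even difference shows, so they are a description. None of the 5 is a contractile gene, and for Tm1 the r with TpnC4 was -0.352.

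The 5 genes shared the profile of TpnC4 and not its size. CG14764 had 65.7% ± 2.15 of its lacZ level in KD1 and 62.3% ± 1.69 in KD2. The methyltransferase gene bin3 had 61.1% ± 1.71 and 59.7% ± 2.45. Stim, an EF-hand calcium sensor of the endoplasmic reticulum that was not in the list above, had 42.7% ± 2.37 in KD1 and 40.0% ± 1.91 in KD2. MFS17, a predicted transporter, had 30.3% ± 3.08 and 30.4% ± 1.15, and Bet3, a subunit of the TRAPP trafficking complex, had 26.9% ± 2.65 and 25.8% ± 3.29 (SD, n = 3 each). TpnC4, at 20.8% in KD1 and 17.6% in KD2, kept the lowest share of the 6 in both knockdowns. It was picked for its large difference and the 5 others by r, which ignores size, so this order is a description and not a test.

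**Figure D5:**
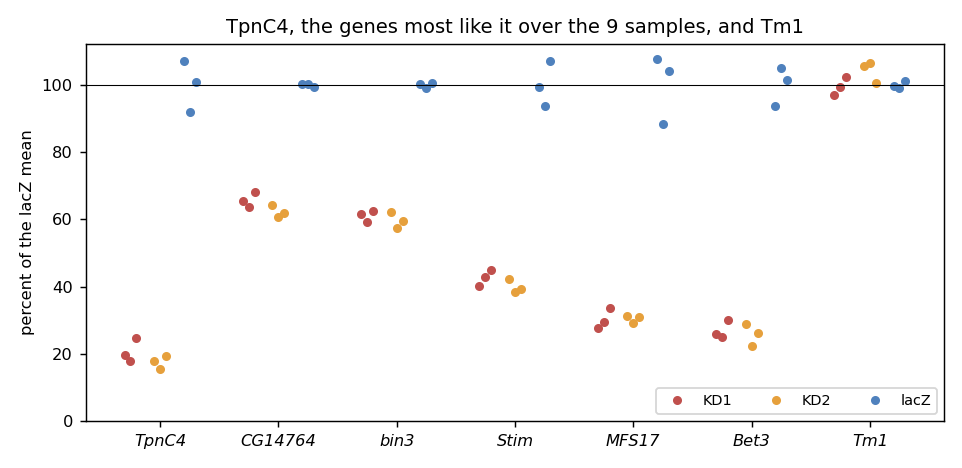
Normalised read count of each library as a percent of the lacZ mean, for TpnC4, the 5 genes most like it by Pearson's r and Tm1, with KD1, KD2 and lacZ side by side. TpnC4 lies at 15.6% to 24.6% in the knockdowns, CG14764 at 60.8% to 68.0%, and Tm1 at 97.0% to 107%.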

How the data were processed

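RNA-Seq of polyadenylated RNA was analysed in 9 samples, grouped by their titles into KD1, KD2 and lacZ. The authors aligned paired reads to BDGP6 with STAR (2.5.1b) and deposited raw read counts per gene, made with featureCounts of Subread (1.4.6-p2) and the gene models of Ensembl release 90, with 1 file per sample and no normalisation. Whether strand was used in counting is not given in the sources used here. Libraries held 13040608 to 15931035 reads, and the 7406 genes with a mean CPM above 1 over all samples held at least 99.911% of them. Positions, exon lengths and RPKM (reads per kb of exon, scaled to the library total) used Ensembl release 115 of the same assembly. Symbols matched 98.26% of identifiers.

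All groups were tested in 1 DESeq2 model (1.42.0, run in R 4.3.3), with group as the factor, median-of-ratios size factors, the Wald test, Benjamini-Hochberg adjustment over all genes tested and independent filtering at an alpha of 0.1, after the methods of the study. Genes with an adjusted p under 0.05 and a fold change above 1.3 were called. Alternatives were edgeR (4.0.16, quasi-likelihood), TMM factors, no filter, a mean RPKM above 1, only the groups compared, a replicate block, a prior on fold changes, no independent filtering, no fold limit, a test against 1.3-fold and leaving out each sample. The procedure was tested on simulated counts with the same spread setting for all genes and with changes larger than 1.3-fold. That test does not cover calls near the fold limit. Replicates differed by more than sampling noise (chi-square per degree of freedom 3.2 to 9.66).

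The genes and lists were chosen with earlier results of these data known. The rule named the muscle genes, Hrb98DE, list genes called in both comparisons, the 2 most abundant genes of each list, the 5 genes most like TpnC4 and adjacent genes; Zasp52, Mf, Actn, Strn-Mlck, nau, Calx, sls, bt, Obsc, Hrb87F, the genes beside TpnC4 in the ranking, the hemocyte markers and the low genes mentioned were named after their values were seen. No sequence is printed, since none was used here.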

Additional observations from a re-analysis of the deposited data

How the results depend on the processing

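Tm1 was not past the threshold under any of the 19 alternatives, and the log2 fold change of TpnC4 stayed negative, from -2.42 to -1.60 in KD1 and from -2.63 to -1.72 in KD2, with the values nearest 0 under the prior on fold changes (-2.41 to -2.18 and -2.58 to -2.43 when 1 replicate was left out). The counts for other sarcomere genes (1 in KD1, 1 in KD2) moved most. In KD1 the count was 2 with only the groups compared, 0 with the prior, 0 when tested against 1.3-fold and 5 with no fold limit. Leaving out a replicate gave 0 to 2, with 0 without lacZ replicate 2 and 2 without lacZ replicate 3. Under edgeR and TMM the count stayed at 1, but the gene was tmod and not Zasp52, which was called in 11 of 19 alternatives. In KD2 the count was 5 with no fold limit, 0 when tested against 1.3-fold and 1 to 2 when a replicate was left out (2 without KD2 replicate 1). Non-muscle actomyosin genes gave 0 throughout except with no fold limit (2 in KD1, 3 in KD2). With the replicate block, TpnC4 was at -2.42 in KD1 and -2.63 in KD2, Tm1 at 0.00 and 0.06 (DESeq2 adjusted p = 0.999 and 0.777), and nau (KD2, adjusted p = 0.207) and the hemocyte marker vkg (0.0958 in KD1, 0.14 in KD2) were no longer called, which left 3 hemocyte markers in each. Without a fold limit the block left 2 of the 9 sarcomere genes in KD1 and 3 in KD2 with an adjusted p under 0.05, which was no longer so for Mf in KD1 (0.0713), Itpr in KD2 (0.0768), Cam in KD2 (0.404), sd in KD2 (0.37), Pxn in KD1 (0.15) and, in both knockdowns, Actn (0.292 and 0.411), Strn-Mlck (0.131 and 0.0501), Mef2 (0.36 and 0.0772) and sqh (0.124 and 0.273). It left 0 actomyosin genes. Calls over all genes fell to 322 from 546 in KD1 and to 344 from 602 in KD2. Same-numbered samples did not deviate together on average (mean r -0.061 over 6 pairs, from -0.341 to 0.159). The 21 other pairs had a mean r of 0.017, from -0.325 to 0.331. Deviations from the mean of 3 samples sum to 0 within a group, which draws these means towards 0. Whether the numbers pair the samples cannot be decided from them. The prior left 340 and 392 calls and the test against 1.3-fold 97 and 128. Depth limits the 7 low genes, for which no fold could be given.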
